A study of Mus musculus with 23 samples.

Results

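The nuclear genes of the mitochondrial respiratory chain and ATP synthase were followed in mouse liver with and without hepatocyte beta-catenin, and with and without phenobarbital. Members were genes whose symbol in the array's annotation begins with Ndufa, Ndufb, Ndufc, Ndufs, Ndufv, Uqcr, Cox4 to Cox8 or Atp5, or is Sdha, Sdhb, Sdhc, Sdhd or Cyc1. For each, the probe set assigned to that gene alone with the highest mean over all arrays was taken. This gave 91 of 18194 genes: 36 in complex I, 4 in complex II, 9 in complex III, 17 in complex IV, 17 in complex V, and 8 complex I assembly factors (Ndufaf genes) that the prefix also catches. Of these, 89 were tested. The complex I gene Ndufb4 and the testis isoform Cox7b2 were above the filter's level in 0 arrays and were not tested, while the brighter probe sets of Ndufb4 are assigned to several genes. Ndufa11 and Ndufs6 have probe sets shared with another gene and are not members. Ndufa4, now regarded as a complex IV subunit, was kept in complex I by its symbol, and Cox7a2l, known for a role in supercomplex assembly, in complex IV.

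Complexes I and II pass electrons from NADH and succinate to ubiquinone, complex III hands them to cytochrome c, and complex IV reduces oxygen. The proton gradient that complexes I, III and IV build drives ATP synthesis by complex V. All complexes but complex II combine nuclear-encoded subunits with some encoded by mitochondrial DNA, and several complex IV subunits exist as tissue isoforms, with one form in liver and another in heart, skeletal muscle and brown fat. In the liver, oxygen tension and oxidative metabolism are known to be higher around the portal vein than around the central vein, where beta-catenin sustains the perivenous programme of hepatocytes.

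RNA from 23 liver samples of male C3H mice was hybridised, 1 array per sample. The groups were Ctnnb1 knockout with phenobarbital (7 arrays), Ctnnb1 knockout without it (7 arrays), wild type with phenobarbital (4 arrays) and wild type without it (5 arrays). Phenobarbital, a barbiturate that activates the nuclear receptor CAR in hepatocytes, was given at 0.05% of the diet for 12 weeks. Controls received a diet without it per the treatment text, although the labels call their agent water. Knockout mice express Cre from the albumin promoter, which acts in hepatocytes on loxP sites flanking exons 3 and 6 of Ctnnb1. The state of the gene in other liver cells was not measured. The alleles had been backcrossed to C3H, and whether wild-type mice carried either transgene is not stated. The labels number replicates but do not state separate animals, and p-values therefore cover spread among these arrays only, and that spread may be technical.

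Values are log2 signals, and array medians over all probe sets lay between 5.09 and 5.14. Levels of different probe sets are not compared, because a probe's brightness also depends on its sequence. Ctnnb1 itself averaged 12.19 ± 0.0937 in knockout with phenobarbital, 12.25 ± 0.115 in knockout controls, 12.07 ± 0.0323 in wild type with phenobarbital and 12.20 ± 0.0242 in wild-type controls (SD). The positions of its probe sets relative to the deleted part are not given, so they do not check the deletion. All 10 measured perivenous markers were called lower in knockout in both genotype comparisons, and their mean per array was 6.60 to 7.20 in knockout against 9.91 to 10.46 in wild type. The mean of 6 hepatocyte markers lay between 13.81 and 13.97 in all arrays. Of 14 macrophage markers, 12 were called higher in knockout with phenobarbital and 13 without it. Their mean was 7.58 to 9.73 in knockout with phenobarbital, 7.72 to 10.18 in knockout controls, 6.75 to 7.01 in wild type with phenobarbital and 6.81 to 7.57 in wild-type controls. In bulk liver, fewer cells of a type and less RNA per cell cannot be told apart.

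A promoter (250 bases before to 50 after the start, RefSeq, GRCm38.p6) was found for 74 of the 91 members, 79 promoters in all. The letters GCGCANGCG, the core of the site of NRF1, a regulator of respiratory genes, occurred on either strand in 21 of the 79 (26.6%), against 11.5% of 14119 promoters of tested genes and 6.25% of all 32851. CCGGAAG, the core bound by the ETS factor GABP, occurred in 19 (24.1%), against 15.2% and 8.86%. AANATGGCG, a YY1 core, occurred in 10 (12.7%), against 4.27% and 2.38%. AAGGTCA, read by oestrogen-related receptors, occurred in 8 (10.1%), against 3.54% and 4.72%, and GGGCGG, read by SP1, in 36 (45.6%), against 57.4% and 35.7%. CTTTGAT, the core read by TCF partners of beta-catenin, was found in 1 member promoter, that of Ndufa5 (1.27%), against 2.69% and 3.73%. Shown are the promoters of Ndufs4 and Ndufc1, which were called in both genotype comparisons, and of Ndufa8, the single member called with phenobarbital, with every match to these 6 motifs in capitals. Uqcrq, the remaining member called in both genotype comparisons, has no entry in that table.
Ndufs4, chr13:114388045-114388344, minus strand: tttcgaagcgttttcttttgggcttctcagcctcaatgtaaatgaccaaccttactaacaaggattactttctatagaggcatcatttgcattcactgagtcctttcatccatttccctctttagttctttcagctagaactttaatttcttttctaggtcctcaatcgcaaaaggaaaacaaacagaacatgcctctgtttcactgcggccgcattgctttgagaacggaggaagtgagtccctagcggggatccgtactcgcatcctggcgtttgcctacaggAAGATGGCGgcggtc
Ndufc1, chr3:51408906-51409205, minus strand: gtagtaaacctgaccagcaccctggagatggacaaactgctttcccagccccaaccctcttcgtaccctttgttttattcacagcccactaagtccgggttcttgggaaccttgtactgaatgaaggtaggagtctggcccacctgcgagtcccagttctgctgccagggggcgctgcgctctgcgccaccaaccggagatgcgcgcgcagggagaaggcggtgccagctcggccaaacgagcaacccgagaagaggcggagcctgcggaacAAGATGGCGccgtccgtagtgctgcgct
Ndufa8, chr2:36049289-36049588, minus strand: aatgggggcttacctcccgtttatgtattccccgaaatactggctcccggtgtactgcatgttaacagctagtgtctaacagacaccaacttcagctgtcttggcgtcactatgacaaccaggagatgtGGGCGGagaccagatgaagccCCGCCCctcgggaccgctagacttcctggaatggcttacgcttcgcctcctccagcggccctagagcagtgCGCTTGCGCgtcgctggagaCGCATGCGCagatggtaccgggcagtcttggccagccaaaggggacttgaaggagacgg
Ndufs4 and Ndufc1 each hold 1 YY1 match, at 36 and 23 bases after the start. Ndufa8 holds 2 NRF1 matches, 29 and 9 bases before the start, and 2 SP1 matches. The capitals do not overlap between motifs. A match describes letters in this window, not binding.

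Differences of the members between the 4 groups were small. Between the genotypes, 7 of 89 members were called lower and 2 higher in knockout with phenobarbital, and 11 lower and 1 higher without it. Over all genes 8.12% and 10.1% were called lower, and 11.9% and 14.8% higher, so the members' lower shares were near the background. Without phenobarbital the count became 1 lower and 5 higher when knockout control replicates 2, 6 and 7 were left out, as described below. No member reached a 2-fold change in any of 5 comparisons. The 95% intervals lay within 0.5 log2 of zero for 87 of 89 members in both phenobarbital comparisons, for 85 between the genotypes with phenobarbital, for 87 without it, and for 85 in the interaction. The exceptions were Cox7a1, Cox8b, Cox7c, Ndufb3, Uqcrq and Ndufb1, each in some of these comparisons. The median SD of a member was 0.0835 in knockout with phenobarbital, 0.133 in knockout controls, 0.0457 in wild type with phenobarbital and 0.0722 in wild-type controls, against 0.136, 0.16, 0.0937 and 0.122 over all genes tested.

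**Figure D1:**
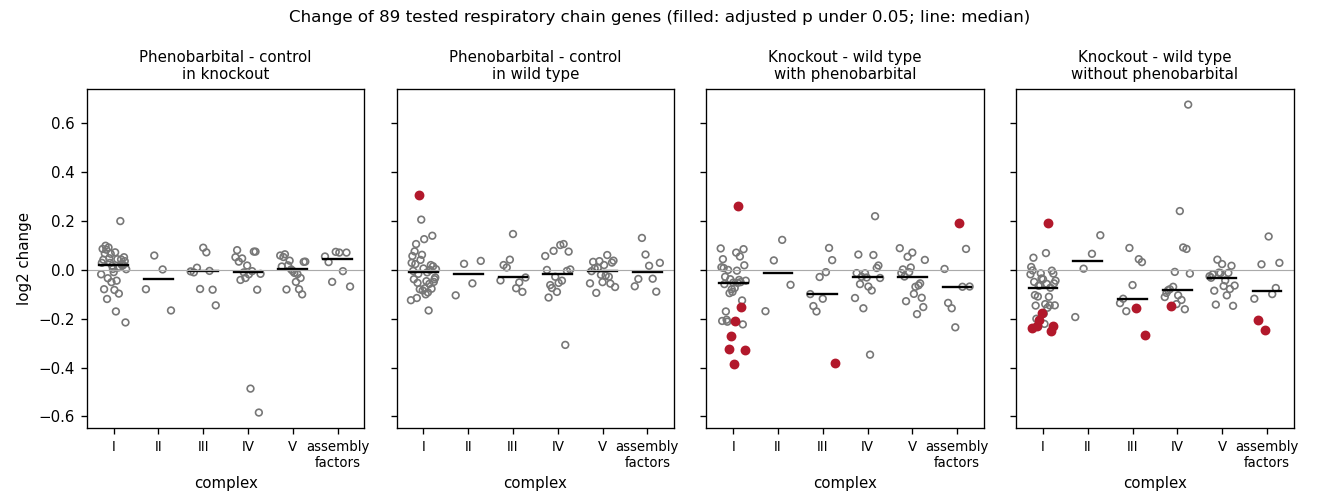
Log2 change of each of the 89 tested members in 4 comparisons, by complex; filled points passed the adjusted p threshold of 0.05 and lines mark medians. No change reaches 1 on the log2 axis, and filled points lie mostly in complex I below zero in the genotype panels.

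Phenobarbital in knockout liver changed 0 of the 89 members by limma's test at an adjusted p under 0.05, where 2.05% of all genes were called. At an unadjusted p under 0.05 there were 8. The arrays of both groups overlapped for every member (0.976% of all genes did not overlap). The median change was 0.01, beside 0.006 over all genes. Ndufv2, a core complex I subunit that carries an iron-sulphur cluster, came nearest. It had a lowest, median and highest value of 11.09, 11.19 and 11.32 in knockout with phenobarbital, against 11.23, 11.50 and 11.58 in knockout controls. Its log2 change was -0.22 (SE 0.0575, adjusted p = 0.053), and the 3 lowest control arrays lay within the range of the phenobarbital arrays. Ndufb6, an accessory subunit of the membrane arm, differed by -0.17 (SE 0.0471, adjusted p = 0.0609). All 4 complex II genes, which encode succinate dehydrogenase, missed the threshold. Sdhd, a membrane anchor, differed by -0.17 and Sdha, the flavoprotein, by -0.08. By complex the medians were 0.02, -0.04, -0.01, -0.01 and 0.00 for I to V.

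In wild type, phenobarbital changed 1 of 89 members, beside 3.85% of all genes (1.95% higher). This was Ndufa8, an accessory complex I subunit of the intermembrane space with cysteine-rich CX9C motifs (chromosome 2, 36036324 to 36049338). Its values were 11.23, 11.22, 11.32 and 11.36 in wild type with phenobarbital, against 11.05, 11.05, 10.82, 11.03 and 10.92 in wild-type controls. Every phenobarbital array lay above every control. The log2 change was 0.31 (SE 0.0654, adjusted p = 0.0072), and the call held in all 35 alternative settings. In knockout the same gene had 10.85, 10.97 and 11.04 (lowest, median, highest) with phenobarbital and 10.71, 10.91 and 11.05 without it, a change of 0.05 (adjusted p = 0.736). The test of the difference between these effects gave -0.26 (SE 0.0836, adjusted p = 0.197). In 9 members (11.6% of all genes) the arrays of both wild-type groups did not overlap, and the 8 besides Ndufa8 differed by 0.13 or less in either direction. The median over members was -0.01, beside 0.008 over all genes.

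Between the genotypes with phenobarbital, 9 of 89 members were called, 2 higher and 7 lower in knockout, beside 20.0% of all genes (11.9% higher and 8.12% lower). The share of members, lower and higher together, was below that background. Of the 7, 6 encode complex I subunits and 1, Uqcrq, a small subunit of complex III near the ubiquinone sites. Arrays of both groups did not overlap in 17 members, where 18.6% of all genes did not. The median change was -0.05, beside 0.002 over all genes, and 62 of 89 members were negative.

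Ndufb3, an accessory subunit of the membrane arm, differed most. It had 10.10, 10.22 and 10.29 (lowest, median, highest) in knockout with phenobarbital, against 10.51, 10.58, 10.58 and 10.68 in wild type with phenobarbital. The ranges were apart, with a log2 change of -0.39 (SE 0.0746, adjusted p = 0.00099). Uqcrq (chromosome 11, 53427922 to 53430831) had 11.53, 11.61 and 11.73 in knockout, against 12.07, 12.01, 11.97 and 11.98 in wild type. All knockout arrays were lower, and the change was -0.38 (SE 0.0908, adjusted p = 0.00537). Its probe set carries a suffix that Affymetrix uses for probes matching more than 1 transcript, and 2 further probe sets, at means of 5.11 and 4.74, also had negative changes but were not called.

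Ndufv2 had 11.09, 11.19 and 11.32 in knockout with phenobarbital, against 11.58, 11.56, 11.56 and 11.49 in wild type with phenobarbital. It fell by 0.33 on the log2 scale (SE 0.0675, adjusted p = 0.00166), and all 3 of its probe sets fell when each was tested on its own. Ndufa8 had 10.85, 10.97 and 11.04 in knockout, against 11.23, 11.22, 11.32 and 11.36 in wild type. It fell by 0.32 (SE 0.0611, adjusted p = 0.000831), again without overlap. Ndufb1, a small subunit of the membrane arm, fell by 0.27 (adjusted p = 0.0324). Ndufb6 fell by 0.21 (adjusted p = 0.0104), with both of its probe sets called. The calls of Ndufb3, Uqcrq, Ndufv2, Ndufa8 and Ndufc1 held in all 35 alternatives, that of Ndufb6 in 34 and that of Ndufb1 in 28.

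The rises with phenobarbital were those of Ndufc1, a small membrane-arm subunit of complex I, and Ndufaf5, an assembly factor that modifies the core subunit Ndufs7. Ndufc1 (chromosome 3, 51405479 to 51408955) had 11.52, 11.60 and 11.69 in knockout with phenobarbital, against 11.38, 11.40, 11.34 and 11.22 in wild type with phenobarbital. It rose by 0.26 (SE 0.0548, adjusted p = 0.00206) with no overlap, while its other probe set had 0.10 and was not called. Ndufaf5 rose by 0.19 (SE 0.0646, adjusted p = 0.0405) with overlapping arrays, and its call held in 24 of 35 alternatives.

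**Figure D2:**
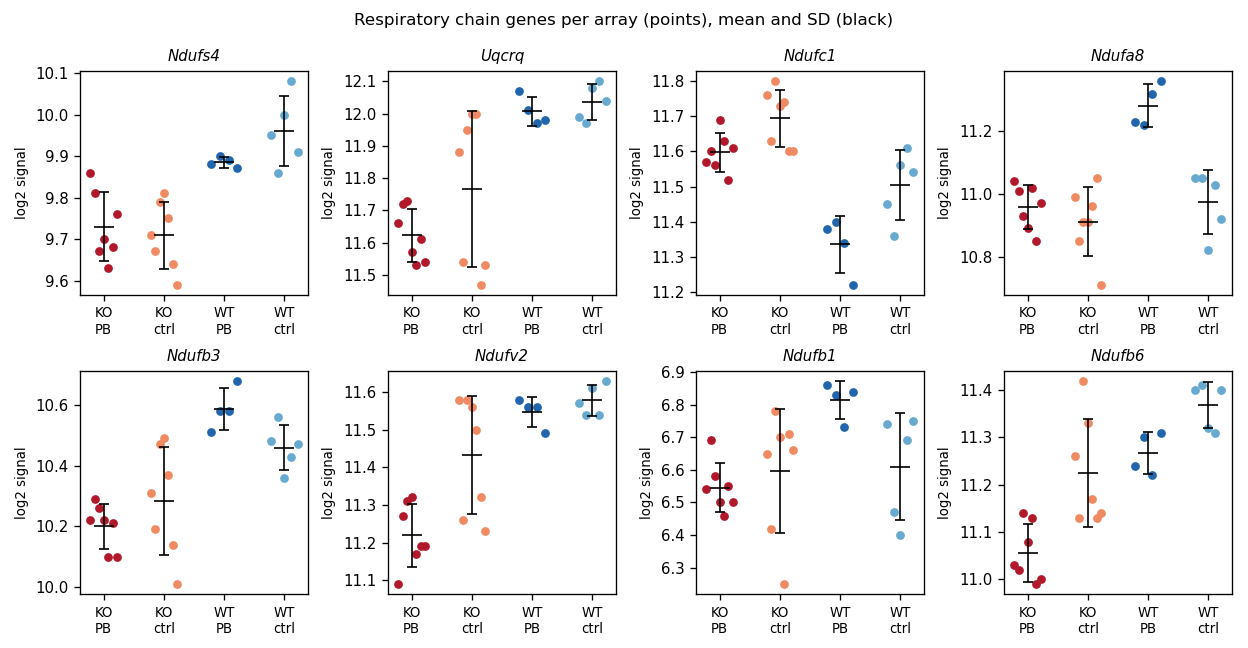
Log2 signal per array of 8 members called in the genotype comparisons, with mean and SD in black (KO, knockout; PB, phenobarbital; ctrl, control). With phenobarbital, the knockout arrays of Ndufb3, Uqcrq, Ndufv2 and Ndufa8 lie below all wild-type arrays and those of Ndufc1 above them; in knockout controls, Uqcrq and Ndufv2 fall into a higher and a lower set of arrays.

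Without phenobarbital, 12 of 89 members were called between the genotypes, 1 higher and 11 lower in knockout, beside 25.0% of all genes (14.8% higher and 10.1% lower). The lower members were 6 complex I subunits, the complex III genes Uqcrq and Uqcrc2, the complex IV gene Cox6a1, and the assembly factors Ndufaf2 and Ndufaf4. Arrays did not overlap for 3 members, Ndufs4, Ndufa12 and Cox6a1, while 10.6% of all genes had no overlap. The median change was -0.07, beside -0.005 over all genes, and 69 of 89 members were negative. By complex the medians were -0.07 in I, 0.04 in II, -0.12 in III, -0.08 in IV and -0.03 in V. No complex II or complex V gene was called.

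Ndufs4, an accessory subunit needed for a stable complex I and known from Leigh syndrome in humans, lies on chromosome 13 (114287795 to 114388094). It had 9.59, 9.71 and 9.81 (lowest, median, highest) in knockout controls, against 9.86, 9.95 and 10.08 in the 5 wild-type controls. All knockout arrays were lower, with a change of -0.25 (SE 0.0497, adjusted p = 0.00115). This call was lost in 1 of 35 alternatives, the mean over its probe sets (adjusted p = 0.0731). With phenobarbital Ndufs4 had 9.63, 9.70 and 9.86 in knockout, against 9.88, 9.90, 9.89 and 9.87 in wild type, a fall of 0.15 (SE 0.0532, adjusted p = 0.047). That second call was lost in 19 alternatives, and the mean over probe sets turned its sign (0.05, adjusted p = 0.583).

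Ndufc1 had 11.60, 11.73 and 11.80 in knockout controls, against 11.45, 11.36, 11.56, 11.61 and 11.54 in wild-type controls. It rose by 0.19 (SE 0.0512, adjusted p = 0.0101) with an overlap at the edge, and the call held in all 35 alternatives. Uqcrq had 11.47, 11.88 and 12.00 in knockout controls, against 11.99, 11.97, 12.08, 12.10 and 12.04 in wild-type controls. It fell by 0.27 (SE 0.0848, adjusted p = 0.0255), and the knockout controls formed a lower and a higher set of arrays.

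The other calls without phenobarbital were falls of 0.15 to 0.25. Ndufa12, an accessory subunit of the peripheral arm, fell by 0.24 (adjusted p = 0.023) and its paralog Ndufaf2, an assembly factor, by 0.20 (adjusted p = 0.0165). Ndufaf4, which acts early in assembly, fell by 0.25 (adjusted p = 0.0269). Ndufa6, a LYR-motif subunit, fell by 0.23, Ndufa9, at the junction of both arms, by 0.20, and Ndufb11, of the membrane arm, by 0.18. Ndufs7, the core subunit with the last iron-sulphur cluster before ubiquinone, fell by 0.23 (adjusted p = 0.0385). Uqcrc2, a core protein of complex III, fell by 0.16 and Cox6a1, the liver form of subunit VIa, by 0.15. The calls of Ndufb11 (adjusted p = 0.0498) and Uqcrc2 (adjusted p = 0.0492) stood at the threshold and were lost in 26 and 27 of 35 alternatives. Of the others, Ndufs7 lost its call in 13 alternatives, Ndufaf4 and Uqcrq in 10 each, Ndufa6 in 5, Cox6a1, Ndufa9 and Ndufaf2 in 4 each and Ndufa12 in 3. With each probe set tested on its own, 0 of 3 were called for Ndufb11 and 0 of 2 for Uqcrc2, though all were negative. For Ndufs7, Ndufaf4 and Cox6a1 it was 1 of 2 each, for Uqcrq 1 of 3 and for Ndufa12 2 of 3.

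The count without phenobarbital rested on a few arrays. In knockout control replicates 2, 6 and 7 the median deviation of the members from their gene means was -0.09, -0.17 and -0.19, while over all genes it was -0.01, -0.01 and -0.03. In replicates 1, 3, 4 and 5 of the same group it was 0.03, 0.07, 0.11 and 0.04. Of the 89 members, 34 had their group's lowest value in replicate 6 and 46 in replicate 7, and 49 had the highest in replicate 4. The same 3 arrays had the lowest weights when limma estimated one per array, 0.54, 0.324 and 0.21. The macrophage mean was 9.85, 10.18 and 9.84 in them, against 9.43 in replicate 1 and 7.72 to 7.81 in replicates 3 to 5, and the mean of 11 stellate cell and scar markers was 8.92, 9.28 and 8.57 against 7.80 to 8.02. In knockout with phenobarbital, replicate 5, which had the highest macrophage mean of its group (9.73), held the lowest value of 57 members, with a median deviation of -0.13. Replicates 7 and 4 of that group had similar macrophage means (9.61 and 9.53) but held the lowest value of only 11 and 7 members. Their median deviations were -0.05 and -0.054. Whether these cell markers account for the members' levels was not tested.

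**Figure D3:**
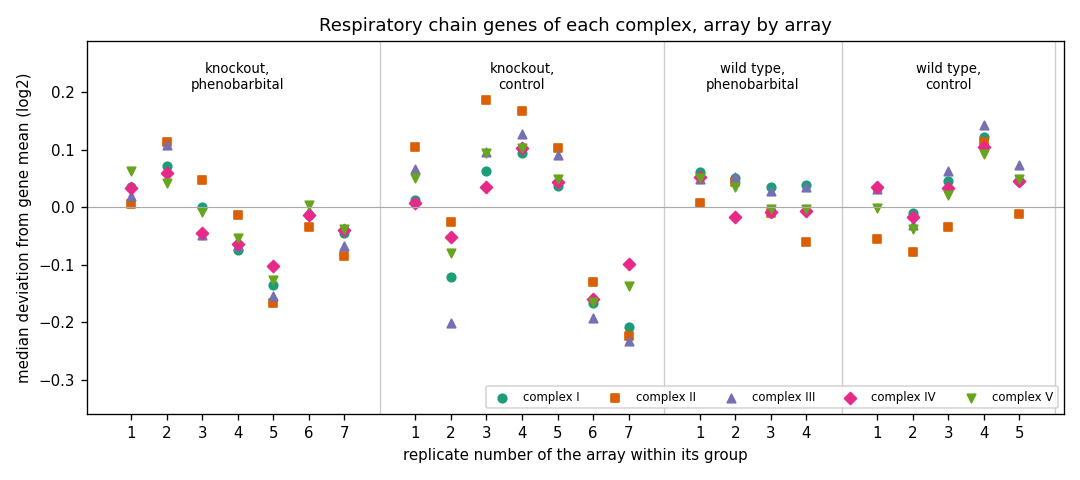
Median deviation of the members of each complex from their mean over all 23 arrays (log2), for every array in its group. Knockout control replicates 6 and 7 lie low in every complex, as does knockout phenobarbital replicate 5, while knockout control replicate 2 lies low in complexes I and III and near other arrays in II and IV.

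When replicates 2, 6 and 7 were left out, 6 members were called between the genotypes without phenobarbital, 5 higher and 1 lower in knockout (7.07% and 4.03% of all genes), and the median turned to 0.02. Of the 12 earlier calls, those of Ndufs4 (-0.20, adjusted p = 0.0227) and Ndufc1 (0.26, adjusted p = 0.00413) held. The other rises were those of Sdhd (0.31, adjusted p = 0.00187), Cox7a1 (0.49, adjusted p = 0.0323), Atp5g1, which encodes the c subunit of ATP synthase (0.20, adjusted p = 0.0435), and the assembly factor Ndufaf8. Knockout control replicate 4, 1 of the 4 controls kept, has the highest Cox7a1 value (6.30) and high brown fat markers (Ucp1 6.94, Cidea 6.78). Replicate 7, left out here, has similar markers (Ucp1 6.84, Cidea 6.48) but Cox7a1 at 5.42. Replicate 3, kept, has the group's next highest Cox7a1 value (5.74) with Ucp1 at 3.90. The part of these markers in the Cox7a1 change was not tested. With the same arrays left out, 13 members passed the threshold in knockout, all lower with phenobarbital (3.1% of all genes lower), and the median was -0.08. The arrays left out are those with the lowest member values among the knockout controls, so the knockout control mean is higher by construction. This favours higher calls in the genotype comparison without phenobarbital, and lower calls with phenobarbital in knockout. The phenobarbital arrays with like macrophage means, replicates 4, 5 and 7 at 9.53, 9.73 and 9.61, were kept. The counts therefore show how far both comparisons rest on these 3 arrays. They are not evidence of a phenobarbital effect or of further rises in knockout. The 13 came from every complex, among them Ndufv2 (-0.34, adjusted p = 0.00021), Uqcrq (-0.34, adjusted p = 0.000451), Sdhd (-0.33, adjusted p = 0.0018), Sdha (-0.25, adjusted p = 0.0357) and Ndufb3 (-0.21, adjusted p = 0.0249). Between the genotypes with phenobarbital, where only the shared estimate of spread changed, 2 members were higher and 14 lower (17.5% and 11.6% of all genes).

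**Figure D4:**
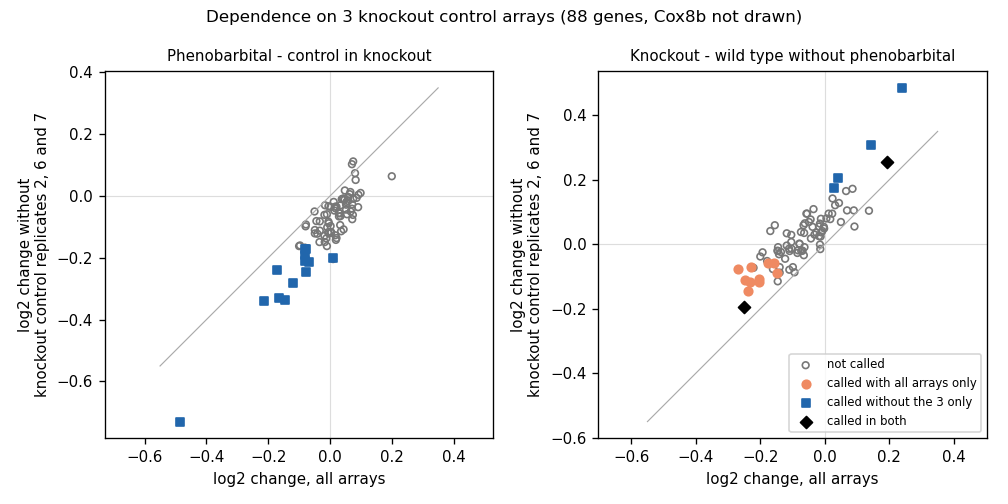
Log2 change of 88 members with all arrays (horizontal) and without knockout control replicates 2, 6 and 7 (vertical); the diagonal marks equal values. On the left nearly all points lie below the diagonal (Cox7a2l and Ndufaf5 lie above it, Ndufb1 on it) and 13 are called only without the 3 arrays; on the right the same 3 genes are the exceptions to points above it, and Ndufs4 and Ndufc1 are called both ways.

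The interaction is the change with phenobarbital in knockout minus the change in wild type. It called 0 of 89 members by limma, where 0.875% of all genes were called, and 5 at an unadjusted p under 0.05. The median was 0.02, beside -0.003 over all genes. Without knockout control replicates 2, 6 and 7 it called 5 members, all negative (1.16% of all genes), a direction that the one-sided removal of low control arrays favours by construction. These were Sdhd (-0.37), Ndufb3 (-0.34), Ndufv2 (-0.31), Uqcrq (-0.30) and Cox7a1 (-0.83, adjusted p = 0.032), where knockout control replicate 4, with its high Cox7a1 and fat markers, was again among the arrays kept. The comparisons share control arrays, so these counts are not independent of those above.

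Among the tissue isoforms of complex IV, Cox8b and Cox6b2 were near the filter's level. Cox8b, the heart, muscle and brown fat form of subunit VIII, was above the filter's level in 13 of 23 arrays. It had 4.26, 4.59 and 4.89 (lowest, median, highest) in knockout with phenobarbital, and 5.07, 4.57, 4.59, 6.47, 4.81, 4.42 and 6.04 in knockout control replicates 1 to 7. In wild type it had 4.34, 4.59, 4.57 and 4.64 with phenobarbital and 4.37, 4.37, 4.80, 4.21 and 4.55 without. Knockout control replicates 4 and 7 stood above all other arrays. The change between the genotypes without phenobarbital was 0.68 (SE 0.265, adjusted p = 0.0643) and that with phenobarbital in knockout was -0.58 (SE 0.242, adjusted p = 0.252). Without replicates 4 and 7 they were 0.23 (adjusted p = 0.217) and -0.14 (adjusted p = 0.655).

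In the same replicates 4, 7 and 1, the fat markers Ucp1, Cidea and Adipoq were high. The remaining measured fat marker, the only one tested, was called in no comparison and did not follow them in all these replicates, as given below. Ucp1, the uncoupling protein of brown fat, had 6.94, 6.84 and 4.76, against 3.47 to 3.90 in the other knockout controls and 3.54 to 4.03 in the remaining groups. Cidea, a lipid droplet protein of brown fat, had 6.78, 6.48 and 4.66, and Adipoq, which encodes adiponectin, had 7.17, 5.81 and 4.85. The mean of all 4 measured fat markers was 3.94 to 4.11 in knockout with phenobarbital, 3.83 to 6.78 in knockout controls, 3.86 to 4.10 in wild type with phenobarbital and 4.03 to 4.13 in wild-type controls. In knockout control replicates 4, 7 and 1 it was 6.78, 6.16 and 4.96. Beside the values of Ucp1, Cidea and Adipoq, this leaves the remaining marker raised only in replicate 4 among the knockout controls. The part of the fat markers in the Cox8b values was not tested.

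Cox7a1, the heart, muscle and brown fat form of subunit VIIa, had 4.83, 5.07 and 5.27 in knockout with phenobarbital and 4.80, 5.54 and 6.30 in knockout controls. The highest was in replicate 4, while replicate 7 had 5.42 and replicate 3, without high fat markers, had 5.74. Its values were 5.55, 5.55, 5.21 and 5.30 in wild type with phenobarbital and 5.60, 5.17, 5.03, 5.34 and 5.37 in wild-type controls. The change with phenobarbital in knockout was -0.49 (SE 0.149, adjusted p = 0.0964), -0.36 (adjusted p = 0.18) without replicates 4 and 7, and -0.73 (adjusted p = 0.00324) without replicates 2, 6 and 7. Cox6a2, the muscle form of subunit VIa, averaged 6.00 ± 0.124 in knockout with phenobarbital, 6.01 ± 0.137 in knockout controls, 6.16 ± 0.0934 in wild type with phenobarbital and 6.08 ± 0.0363 in wild-type controls (SD). Cox4i2, the form known from lung, averaged 4.94 ± 0.113, 4.85 ± 0.0469, 4.95 ± 0.139 and 4.95 ± 0.153 in the same order, and the testis form Cox6b2 was above the filter's level in 11 arrays. The testis form Cox8c averaged 7.17 ± 0.0601, 7.18 ± 0.122, 7.20 ± 0.113 and 7.20 ± 0.038 in the same order. None of these 4 was called in any comparison. The muscle marker Acta1 was high (8.19) in wild-type control replicate 3 and 4.57 to 5.01 elsewhere. The muscle marker Ckm had 5.21 in that array, within its range in the others. The mean of the 6 measured muscle markers was 5.89 there and 4.67 to 4.98 elsewhere.

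**Figure D5:**
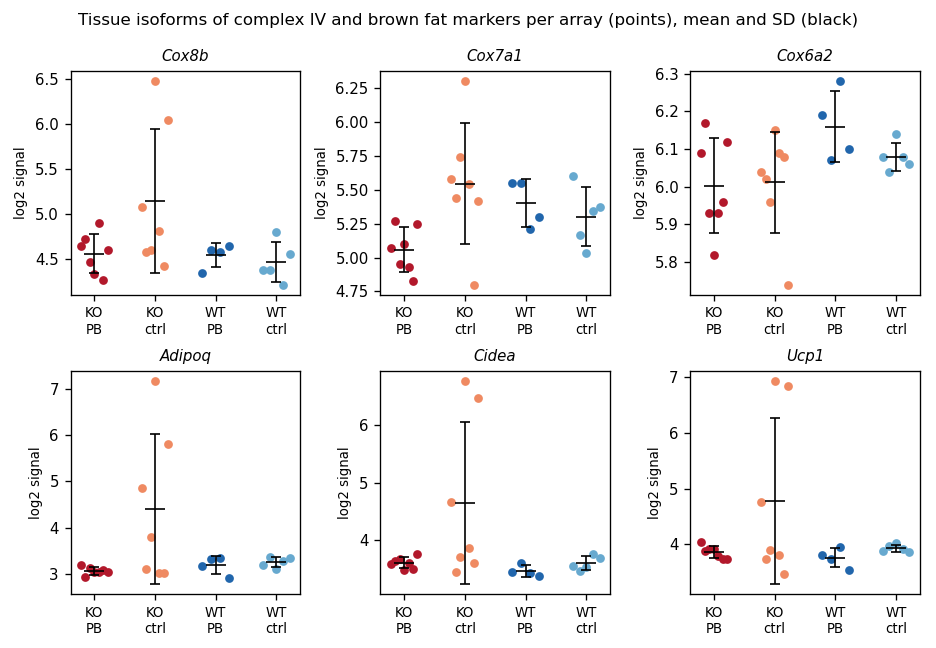
Log2 signal per array of 3 tissue isoforms of complex IV (upper row) and 3 fat markers (lower row), with mean and SD in black (KO, knockout; PB, phenobarbital; ctrl, control). The same knockout control arrays, replicates 4 and 7, are highest for Cox8b, Cidea and Ucp1, at 6.47 and 6.04 for Cox8b.

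The common subunits of liver in a list set for description were mostly not called. Cox4i1, the general form of subunit IV, averaged 12.49 ± 0.111 in knockout with phenobarbital, 12.44 ± 0.128 in knockout controls, 12.60 ± 0.0818 in wild type with phenobarbital and 12.55 ± 0.0722 in wild-type controls. Atp5b, the catalytic beta subunit of ATP synthase, averaged 12.71 ± 0.0939, 12.70 ± 0.0889, 12.73 ± 0.0519 and 12.73 ± 0.0379 in the same order. Ndufv1, which binds NADH, averaged 11.84 ± 0.155, 11.80 ± 0.211, 11.82 ± 0.0189 and 11.86 ± 0.0482, and Cyc1, cytochrome c1, 11.56 ± 0.136, 11.57 ± 0.151, 11.66 ± 0.0056 and 11.70 ± 0.0518. Of that list, Cox6a1 was called, and Ndufs1, Ndufv1, Sdha, Sdhb, Sdhc, Sdhd, Uqcrc1, Uqcrfs1, Cyc1, Cox4i1, Cox5a, Cox5b, Cox6b1, Cox7a2, Cox8a, Atp5a1, Atp5b, Atp5d, Atp5g1, Atp5g2 and Atp5g3 were called in none of the 5 comparisons with all arrays. The list leaves out other core subunits, of which Ndufv2, Ndufs7 and Uqcrc2 were called as given above. The lack of a call does not show that levels were equal.

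Other mitochondrial genes were counted from lists of related functions. Over all genes, 8.12% were called lower and 11.9% higher in knockout with phenobarbital, and 10.1% lower and 14.8% higher without it. Of 17 measured genes of the tricarboxylic acid cycle and pyruvate dehydrogenase, 7 were lower and 1 higher in knockout both with and without phenobarbital, with medians of -0.14 and -0.11. Cs, citrate synthase, had 9.85, 9.93 and 10.02 (lowest, median, highest) in knockout with phenobarbital, against 10.78, 10.78, 10.82 and 10.71 in wild type with phenobarbital. It fell by 0.84 (SE 0.0628, adjusted p = 2.6e-09), and by 0.58 without phenobarbital (adjusted p = 5.29e-07). Idh3a, the catalytic subunit of NAD-dependent isocitrate dehydrogenase, fell by 0.99 and 0.74 in the same order, and Dlat, of pyruvate dehydrogenase, by 0.82 and 0.54. In wild type, phenobarbital raised Cs by 0.33 (adjusted p = 0.00501), the 1 call of this list there, and in knockout it raised Suclg2 by 0.27 and lowered Sucla2 by 0.24, both of succinyl-CoA synthetase.

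Among 76 Mrpl and Mrps genes, taken by symbol alone as mitochondrial ribosomal proteins, 12 were lower and 3 higher in knockout with phenobarbital. Without it 14 were lower and 4 higher (medians -0.06 and -0.03), with Mrpl14 at -0.45 and -0.34. Among 47 Rpl and Rps genes, likewise taken by symbol as cytosolic ribosomal proteins, 7 were higher and 0 lower with phenobarbital. Without it 3 were higher and 1 lower. Of 36 assembly factors outside the members, 1 was lower and 1 higher in knockout with phenobarbital and 6 lower and 2 higher without it. Phenobarbital itself raised 4 and lowered 0 of them in knockout (2.05% of all genes called in either direction), and raised 2 and lowered 0 in wild type (3.85%). Atpaf1, which helps assemble the F1 part of ATP synthase, rose by 0.33 in knockout against wild type, both with phenobarbital (adjusted p = 0.00103). It rose by 0.28 in knockout with phenobarbital against knockout controls (adjusted p = 0.00539). Of 22 Tomm and Timm genes, taken by symbol as genes of mitochondrial import, 5 were lower and 1 higher with phenobarbital. Without it 4 were lower and 1 higher, and Timm9 was at -0.47 and -0.35 in the same order. The 4 include Timmdc1 (-0.34), which is also counted among the assembly factors.

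Of 22 regulators of mitochondrial biogenesis, 0 were called between the genotypes with phenobarbital (limma). Without it 3 were lower and 1 higher in knockout. Ppara, a receptor for fatty acids, averaged 9.34 ± 0.527 in knockout controls and 10.02 ± 0.245 in wild-type controls (SD), a fall of 0.67 (adjusted p = 0.0288), and Tfb2m, a mitochondrial transcription factor, fell by 0.25. Esrra, an oestrogen-related receptor, rose by 0.20 (adjusted p = 0.0235). Gabpb2, a subunit of GABP, was lower with phenobarbital in both genotypes, by 0.23 in knockout and 0.29 in wild type. Of 22 electron carrier and nucleotide exchange genes, 2 were lower and 1 higher with phenobarbital and 4 lower and 3 higher without it. Slc25a4, the adenine nucleotide translocator of heart and muscle, had 7.48, 7.86 and 8.50 (lowest, median, highest) in knockout with phenobarbital, against 6.77, 7.25, 6.90 and 6.51 in wild type with phenobarbital, a rise of 1.14 (adjusted p = 0.00777). Without phenobarbital it rose by 1.56 (SE 0.267, adjusted p = 0.000278), and knockout control replicates 2, 6 and 7 had its highest values, 9.04, 9.43 and 9.09. Cycs, cytochrome c, fell by 0.25 with phenobarbital (adjusted p = 0.00229). With phenobarbital, the remaining calls were 1 higher and 1 lower mitochondrial ribosomal protein in knockout and 1 higher in wild type, 1 import gene higher in wild type (Timm8a1, 0.37), and 1 carrier gene higher in knockout (Coq4, 0.25). Genes encoded by mitochondrial DNA were searched only by symbols beginning with mt-, which found none, and other names for them were not searched.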

How the data were processed

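RNA of 23 liver samples was measured on Affymetrix arrays. The deposited log2 signals are RMA values that the authors computed with the R package affy, per the submitters' processing notes, whose versions are not given in the sources used here. They were used without further scaling. Of 45037 probe sets, 34945 were assigned to 1 gene, and each gene was represented by the brightest of these. Genes were tested where at least 4 arrays exceeded that array's 40th percentile over all probe sets (4.56 on average), which left 13826 genes. limma 3.58.1 (R 4.3.3) estimated a mean for each group from all 23 arrays, and p-values were two-sided and Benjamini-Hochberg adjusted over all genes tested, with calls at 0.05. The procedure was tested on simulated data with independent noise and the same spread of a gene in all groups. That simulation therefore does not cover unequal spread between groups or arrays in which many genes shift together. No batch is named in the labels, and the number of arrays limits precision.

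Members and lists were chosen with earlier results of these data known, so a pattern shown earlier has no independent support here. Named were all called members, a fixed set of core subunits and isoforms, and up to 3 called genes per list and comparison with the largest change, from which a few are given. Other members and Ctnnb1 were named after their values were seen. Alternatives were other filters, normalization, centring, averaged probe sets, a robust prior, array weights, a replicate block, compared groups only, and arrays left out. A filter over the genes' probe sets, each probe set on its own, and leaving out knockout control replicates 4 and 7 were added after seeing the data. Promoter motifs were also chosen then. Sequences are from RefSeq.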

Additional observations from a re-analysis of the deposited data

Results flagged for a closer look

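In 188 pairs of a named member and a group, 3 had 1 array far from the others by Dixon's criterion, the gap to the nearest array over the group's range, which chance alone passes in about 1 in 20. Atp5a1 was highest in replicate 1 of knockout with phenobarbital (0.645), Atp5b was highest in replicate 2 of wild type with phenobarbital (0.86), and Ndufaf2 was lowest in replicate 2 of the wild-type controls (0.82). The Ndufaf2 call between the genotypes without phenobarbital held without that array.

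Outside the genes tested, fat markers were high in knockout control replicate 4, with log2 signals of 6.94 for Ucp1, 6.78 for Cidea and 7.17 for Adipoq. In wild-type controls they reached at most 4.02, 3.76 and 3.36. Replicate 4 also held the highest value of its group for 49 of the 89 tested members. Whether the 2 are linked was not tested.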

How the results depend on the processing

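Across 171 named gene and comparison pairs and all alternatives, 5741 values kept their side of the threshold and direction, 145 called values no longer passed, 23 newly passed, and 1 reversed (Ndufs4 with phenobarbital between the genotypes, 0.046 with averaged probe sets). The cause of these changes was not tested. For phenobarbital in knockout, the number of called members was 0, against 2 with the 60th percentile filter, 2 with averaged probe sets, 1 with the trended and robust prior, 5 with array weights, 13 without knockout control replicates 2, 6 and 7 (median -0.081), 1 without replicates 4 and 7 and 1 with the filter over genes. For phenobarbital in wild type it was 1, against 3 with array weights. Between the genotypes with phenobarbital it was 9, against 21 with array weights, 15 with only the compared groups, 16 without replicates 2, 6 and 7 and 14 without replicates 4 and 7. Without phenobarbital it was 12, against 4, 3 and 6 for the first 3 of these (median 0.024 for the third). The interaction had 0, against 2 with array weights and 5 without replicates 2, 6 and 7 (median -0.063). Leaving out 1 array at a time gave 0 to 3 called members for phenobarbital in knockout, 1 to 2 in wild type, 6 to 14 between the genotypes with phenobarbital, 7 to 17 without it and 0 to 0 for the interaction. The medians ranged from -0.02 to 0.031, -0.033 to 0.002, -0.073 to -0.033, -0.092 to -0.042 and -0.008 to 0.039 in the same order. The count without phenobarbital was 7 without knockout control replicate 7 and 7 without wild-type control replicate 5, and the count with phenobarbital was 14 without knockout control replicate 7. For phenobarbital in knockout it was 1, 3 and 2 without knockout control replicates 2, 6 and 7 in turn and 1 without phenobarbital replicate 4, and in wild type it was 2 without phenobarbital replicate 4 or control replicate 2. Correlations of same-numbered deviations ran from -0.695 to 0.628 and showed no consistent pairing by replicate number. They cannot exclude pairing, because other differences among the arrays also enter these deviations. With the replicate block, 0, 2, 6, 2 and 0 members were called for phenobarbital in knockout, in wild type, between the genotypes with phenobarbital, without it, and in the interaction. Dim probe sets such as those of Cox8b and Cox6b2 can understate changes.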
